A study of Mus musculus with 6 samples.

Results

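Expression of 10 enzyme genes that make serine, carry single-carbon units on folate and make asparagine was compared between mouse ADSCs with a hairpin against Ifit1 and mouse ADSCs with a scrambled hairpin. The 10 genes are Phgdh, Psat1, Psph, Shmt1, Shmt2, Mthfd1, Mthfd2, Mthfd1l, Aldh1l2 and Asns. They were chosen by symbol, with earlier results of these data known. All 10 were found, and they stand among 19877 genes of the deposited table. Of these 10 genes, 8 fell in knockdown libraries and 2, the cytosolic folate enzymes Shmt1 and Mthfd1, rose. Such changes were common in these data. Of all 10311 tested genes, 51.0% passed the threshold given below, 31.1% lower and 19.8% higher in knockdown.

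The labels give the cells only as ADSCs, letters commonly used for stem cells derived from adipose tissue, the stromal cells of fat. Messenger RNA was sequenced from 3 Ifit1 knockdown and 3 scrambled libraries of cells whose genotype is given as WT in both groups, and each of 3 labelled batches holds 1 library of each group. Both groups carry a short hairpin. Neither the vector, the position the hairpin targets, the number of clones or donors nor the age and sex of the mice is given in the sources used here, and nothing says that the libraries came from separate cultures, so p-values measure the spread between these libraries, which may be technical.

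Serine is made from a glycolysis intermediate in a short cytosolic pathway: PHGDH oxidises phosphoglycerate, PSAT1 adds the amino group and PSPH removes the phosphate. Serine hydroxymethyltransferases then split serine into glycine and a single-carbon unit bound to folate, SHMT1 in the cytosol and SHMT2 in mitochondria. In mitochondria MTHFD2 and MTHFD1L carry that unit to formate, and ALDH1L2 oxidises it to carbon dioxide with production of NADPH, while cytosolic MTHFD1 takes up formate for purine and thymidylate synthesis. ASNS makes asparagine from aspartate and glutamine. Several of these genes, Asns, Psat1, Phgdh, Shmt2, Mthfd2 and Aldh1l2 among them, are known targets of ATF4, the transcription factor of the amino acid and integrated stress responses. Stromal cells are known for secreting collagen, which is rich in glycine.

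ATF4 binds composite sites called C/EBP-ATF response elements, and the Asns promoter is a classical example. The RefSeq promoter table (GRCm38.p6, 250 bases before to 50 after each start site) holds 9 of the 10 genes in 10 windows, since Psat1 has more than 1 annotated start, and Aldh1l2 is not in it. The motif TGATGNAA, on either strand, was found in 1 of these 10 windows, that of Asns, and in 3.97% of all 32851 windows. The site is shown because it was the only match in these windows, and any link to the fall of Asns was not tested. The printed stretch, chr6:7693214-7693243, is on the minus strand, the strand of Asns, with the motif in capitals. The motif starts 23 bases before the RefSeq start site, but GENCODE M21 starts the gene further upstream, at 7693254, so in that annotation it lies inside the gene.
Asns: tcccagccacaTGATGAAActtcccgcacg
The E-box CACGTG was found in 0 of the 10 windows and in 7.15% of all windows. A match is a description of letters and not a measured binding site, and its absence says nothing about a factor at sites outside these windows.

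On GRCm38 (GENCODE M21), all 10 genes are protein-coding. Phgdh (Entrez 236539) lies on chromosome 3 from 98313170 to 98339990, Psat1 (107272) on chromosome 19 from 15904678 to 15947337 and Psph (100678) on chromosome 5 from 129765558 to 129787449. Shmt1 (20425) lies on chromosome 11 from 60788104 to 60811718 and Shmt2 (108037) on chromosome 10 from 127517123 to 127522444. Mthfd1 (108156) lies on chromosome 12 from 76255298 to 76319803, Mthfd2 (17768) on chromosome 6 from 83305691 to 83325908 and Mthfd1l (270685) on chromosome 10 from 3973118 to 4167081. Aldh1l2 (216188) lies on chromosome 10 from 83487450 to 83534140 and Asns (27053) on chromosome 6 from 7675169 to 7693254. Mthfd1 and Mthfd1l are on the plus strand and the other members on the minus strand. In this annotation the 3′ end of Aldh1l2 overlaps 1056 bases of D10Wsu102e, Shmt1 overlaps 184 bases of Smcr8 (7.79 FPKM in knockdown and 8.20 FPKM in scrambled libraries) and Shmt2 overlaps 32 bases of Ndufa4l2 (0.0167 FPKM in knockdown and 0.624 FPKM in scrambled libraries), each on the opposite strand, and an antisense gene, Gm34868, overlaps 19090 bases of Mthfd1. A Phgdh pseudogene is annotated on another chromosome. Without a stated strand setting, reads of the stretches shared with genes on the opposite strand are uncertain. On the same strand, Gm43890 overlaps 2799 bases of Mthfd2, and Gm16074 and Gm25515 overlap 444 and 157 bases of Mthfd1l. A strand setting would not tell those reads apart.

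Levels are FPKM, fragments per kilobase of gene length and per fixed number of fragments in the library, so they can be set beside each other across genes. Fragments recovered ran from 32.2 to 40.2 M per knockdown library and from 37.1 to 40.6 M per scrambled library. Each member had at least 2013 fragments in every library, and all 10 passed the filter on low values (FPKM of 1 or more in 3 or more of the 6 libraries, chosen without regard to group), which left 10311 tested genes. Ifit1, which checks the labels, had 1.76, 1.48 and 1.51 FPKM in knockdown libraries 1, 2 and 3, against 4.90, 3.75 and 4.97 FPKM in scrambled libraries 1, 2 and 3. Of 10 mesenchymal stromal markers, 9 averaged at least 1 FPKM, and Nt5e (CD73) did not. Their summed level ran from 1155 to 1283 FPKM in knockdown libraries and from 1691 to 1866 FPKM in scrambled libraries, most of it Col1a1. The single markers split: Pdgfra, Pdgfrb, Thy1, Eng, Ly6a and Col1a1 were lower in knockdown, and Vcam1 did not pass. Cd44 (117 FPKM in knockdown, 82.6 FPKM in scrambled) and Itgb1 (316 and 296 FPKM) were higher. Pdgfra (1.09 FPKM) and Eng (1.21 FPKM) averaged little above 1 FPKM in knockdown libraries. Summed markers of mature adipocytes, endothelium, Schwann or neural cells and skeletal muscle stayed under 1 FPKM in every library. Among leukocyte markers Cd68 alone averaged at least 1 FPKM, with at most 2.16 FPKM in any library, while the pan-leukocyte gene Ptprc was at most 0.00524 FPKM. Of the 6 epithelial or mesothelial markers, Krt19 (78.5 to 83.6 FPKM in knockdown and 66.4 to 70.6 FPKM in scrambled libraries) and Msln (13.1 to 17.7 FPKM in knockdown and 17.5 to 25.4 FPKM in scrambled libraries) were above 1 FPKM on average. The list summed to 96.9 to 97.2 FPKM in knockdown and 87.2 to 98.0 FPKM in scrambled libraries, and its part in the results was not tested. In bulk samples fewer cells of a type and less RNA per cell cannot be told apart.

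The serine pathway genes Phgdh and Psat1 were the most abundant members, and Psph, which encodes the last step, was far lower. In knockdown cells the order of mean levels was Phgdh, Psat1, Shmt2, Mthfd2, Mthfd1, Asns, Mthfd1l, Shmt1, Psph and Aldh1l2, and Mthfd1 and Asns overlapped between libraries. In scrambled cells the order was Phgdh, Psat1, Shmt2, Mthfd2, Asns, Mthfd1, Mthfd1l, Aldh1l2, Psph and Shmt1, where Aldh1l2 overlapped with both Mthfd1l and Psph. Phgdh lay above 98.0% of tested genes by mean level and Aldh1l2 above 64.9%. The levels of the 10 genes summed to 882 ± 15.5 FPKM in knockdown and 1051 ± 21.0 FPKM in scrambled libraries (SD, n = 3 each), so knockdown stood at 0.839 of scrambled.

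**Figure D1:**
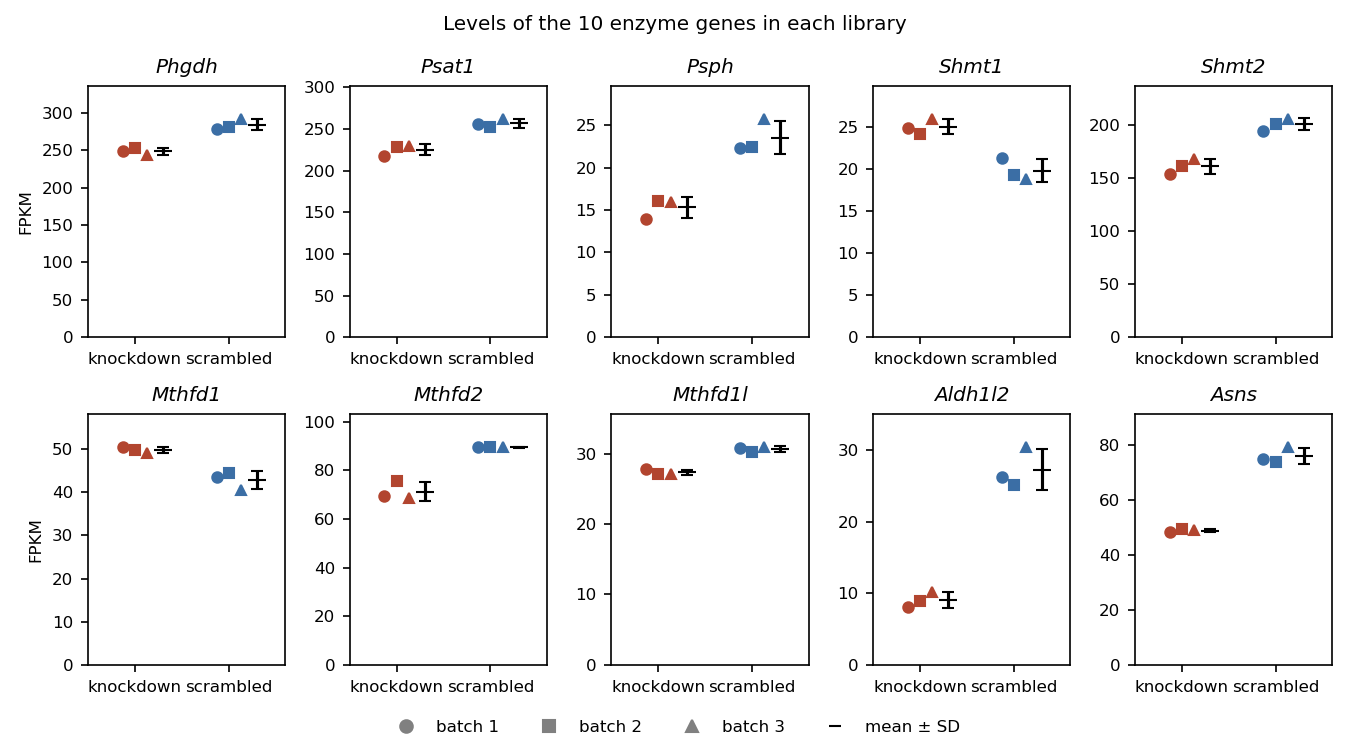
Each panel plots one enzyme gene, with FPKM on a linear axis from 0, 3 knockdown libraries in red at the left and 3 scrambled libraries in blue at the right, batch by symbol, and mean ± SD as black bars. Shmt1 and Mthfd1 are higher in all 3 knockdown libraries, the other 8 genes are lower in all 3, and Aldh1l2 has the widest gap for its level.

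All 10 members passed the threshold, an adjusted p of 0.05 in limma, 2 of them higher and 8 lower in knockdown. Of all 10311 tested genes 51.0% passed, 19.8% higher and 31.1% lower, so that passing is common here and the directions and sizes carry the description. Knockdown and scrambled libraries did not overlap for any of the 10 members, and did not overlap for 61.1% of all tested genes (23.8% with knockdown higher, 37.3% with knockdown lower). The median log2 fold change of the members was −0.25, beside −0.05 for all tested genes. Fold changes are on the log2(FPKM + 0.5) scale, with standard errors.

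Within serine synthesis the first 2 steps fell by a small amount and the last step by more. Phgdh, which commits phosphoglycerate to serine, had 249.7, 253.1 and 244.3 FPKM in knockdown libraries 1, 2 and 3, against 279.1, 282.0 and 292.4 FPKM in scrambled libraries 1, 2 and 3. This is a log2 fold change of −0.19 ± 0.03 (limma adjusted p = 0.000684), and the means differed by 12.5%. Under median centring it was −0.13. The highest knockdown library was 25.9 FPKM below the lowest scrambled library.

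Psat1, the transaminase of the second step, had 217.5, 228.0 and 229.9 FPKM in knockdown libraries, against 256.3, 251.8 and 262.1 FPKM in scrambled libraries. Its log2 fold change was −0.19 ± 0.03 (limma adjusted p = 0.00104), and −0.12 under median centring. Psat1 was at 0.904 ± 0.0351 of the Phgdh level in knockdown and at 0.903 ± 0.0138 in scrambled libraries (SD, n = 3 each). That ratio overlapped between the groups, with log2 differences of −0.08, 0.01 and 0.07 within batches 1, 2 and 3.

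Psph, the phosphatase that releases serine, had 13.9, 16.1 and 15.9 FPKM in knockdown libraries, against 22.3, 22.5 and 25.8 FPKM in scrambled libraries. Knockdown library 1 was the lowest and scrambled library 3 the highest of the 6. This is a log2 fold change of −0.60 ± 0.07 (limma adjusted p = 0.000236), the largest of the 3 serine synthesis genes. Relative to Phgdh in the same library, Psph stood at 0.0616 ± 0.00511 in knockdown and 0.0826 ± 0.00474 in scrambled libraries, with no overlap (log2 difference −0.43, exact two-sided permutation p = 0.1, the smallest that 3 against 3 libraries allow). The 5′ end of Psph overlaps 452 bases of Cct6a, a chaperonin subunit gene annotated on the opposite strand, which averaged 337 FPKM in knockdown and 271 FPKM in scrambled libraries. Cct6a rose, against the direction of Psph, and without a stated strand setting their shared reads cannot be told apart.

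The serine hydroxymethyltransferases changed in opposite directions. Shmt2, the mitochondrial enzyme, had 153.9, 160.8 and 167.7 FPKM in knockdown libraries, against 194.1, 201.0 and 205.5 FPKM in scrambled libraries. It fell, with a log2 fold change of −0.32 ± 0.04 (limma adjusted p = 0.000224).

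Shmt1, the cytosolic enzyme, had 24.9, 24.2 and 26.0 FPKM in knockdown libraries, against 21.4, 19.3 and 18.8 FPKM in scrambled libraries. It rose, with a log2 fold change of 0.33 ± 0.05 (limma adjusted p = 0.00102), and 95.5% of tested genes had a lower fold change. The gap between the lowest knockdown and the highest scrambled library was 2.84 FPKM. Shmt2 remained the more abundant transcript, at 6.42 ± 0.232 times the Shmt1 level in knockdown and 10.1 ± 0.959 times in scrambled libraries (SD, n = 3 each). The log2 difference of this ratio was −0.66, and −0.56, −0.65 and −0.76 within batches 1, 2 and 3 (exact two-sided permutation p = 0.1, the smallest possible). With Shmt2 lower and Shmt1 higher in every knockdown library, the signs and this p were fixed by the values above.

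The 3 members for mitochondrial folate enzymes downstream of SHMT2 fell, and cytosolic Mthfd1 rose. Mthfd2, the mitochondrial dehydrogenase and cyclohydrolase, had 69.7, 75.8 and 68.5 FPKM in knockdown libraries, against 89.5, 89.8 and 89.5 FPKM in scrambled libraries. Scrambled libraries were within 1 FPKM of each other and knockdown library 2 stood above the other two. This is a log2 fold change of −0.33 ± 0.04 (limma adjusted p = 0.000248).

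Mthfd1l, the mitochondrial formyltetrahydrofolate synthetase that releases formate, had the smallest change of the members. It had 27.8, 27.1 and 27.1 FPKM in knockdown libraries, against 30.8, 30.3 and 31.0 FPKM in scrambled libraries. Its log2 fold change was −0.16 ± 0.03 (limma adjusted p = 0.00257), and 30.2% of tested genes had a lower fold change. Under median centring it was −0.10.

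Aldh1l2, the mitochondrial formyltetrahydrofolate dehydrogenase, had the largest change. It had 8.06, 9.003 and 10.2 FPKM in knockdown libraries, against 26.3, 25.1 and 30.6 FPKM in scrambled libraries. The highest knockdown library was 14.9 FPKM below the lowest scrambled one. This is a log2 fold change of −1.54 ± 0.09 (limma adjusted p = 1.89e-05), the 24th largest fall of the 10311 tested genes, and Aldh1l2 was the only member that changed at least 2-fold, as did 1.09% of all tested genes in the same direction. Its cytosolic counterpart Aldh1l1 averaged 0.00527 FPKM in knockdown and 0.0210 FPKM in scrambled libraries, under the filter, and was named after its values were seen.

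Mthfd1, the cytosolic trifunctional folate enzyme, had 50.6, 49.8 and 49.1 FPKM in knockdown libraries, against 43.6, 44.4 and 40.5 FPKM in scrambled libraries. Scrambled library 3 was the lowest of the 6. This is a log2 fold change of 0.22 ± 0.04 (limma adjusted p = 0.002). Set against Mthfd1 in the same library, Mthfd2 stood at 1.43 ± 0.0787 in knockdown and 2.09 ± 0.102 in scrambled libraries, Mthfd1l at 0.548 ± 0.0034 in knockdown and 0.718 ± 0.0436 in scrambled libraries, and Aldh1l2 at 0.183 ± 0.0243 in knockdown, against 0.641 ± 0.1 in scrambled libraries (SD, n = 3 each). The log2 differences of these ratios were −0.55, −0.39 and −1.81, and the groups overlapped in none of them. Mthfd2, Mthfd1l and Aldh1l2 were each lower, and Mthfd1 higher, in every knockdown library. The separation of these ratios and their p were thus fixed by values already given and add no evidence. The 3 ratios also share Mthfd1. Over the 6 ratios compared, 5 had an exact two-sided permutation p of 0.1 and an adjusted p of 0.12, and Psat1 over Phgdh had p = 1, so that none could pass 0.05 in this design.

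**Figure D2:**
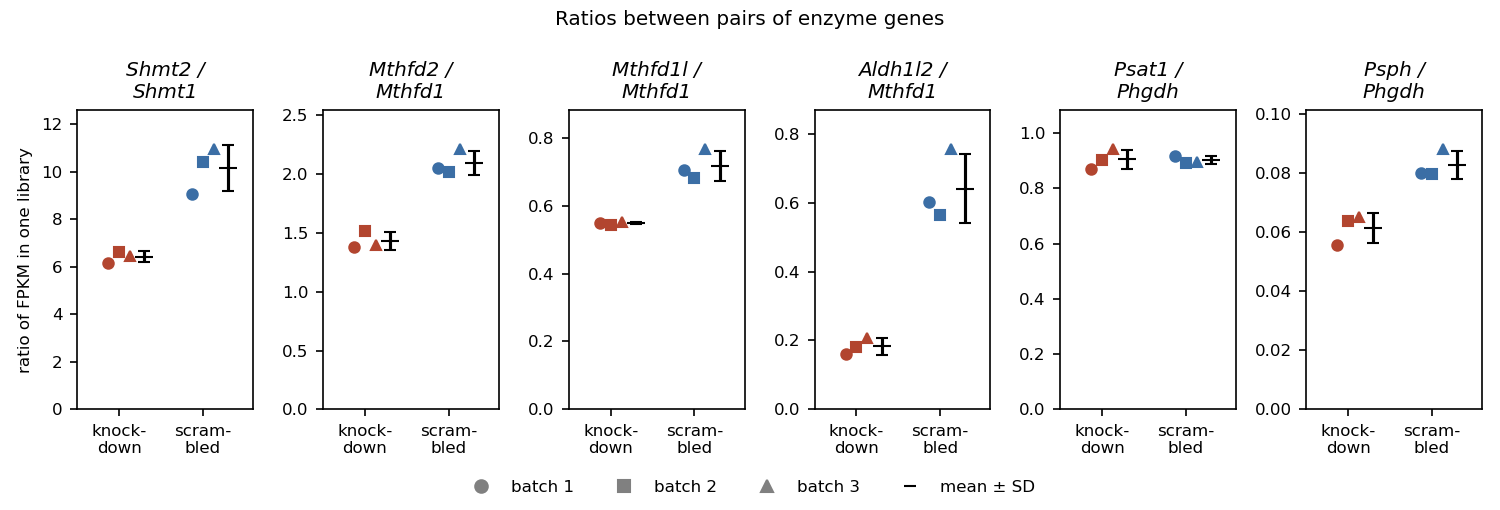
Each panel plots the ratio of FPKM of 2 enzyme genes within a library on a linear axis from 0, with 3 knockdown libraries in red at the left, 3 scrambled libraries in blue at the right, batch by symbol and mean ± SD as black bars. The 4 ratios of a mitochondrial over a cytosolic folate enzyme and Psph over Phgdh are lower in all 3 knockdown libraries, and Psat1 over Phgdh overlaps. The separation of the 4 folate ratios follows from that of their single genes.

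The 4 mitochondrial folate members together had 268 ± 7.82 FPKM in knockdown and 348 ± 8.07 FPKM in scrambled libraries, a ratio of 0.772. The 2 cytosolic members together had 74.9 ± 0.77 FPKM in knockdown and 62.7 ± 3.01 FPKM in scrambled libraries, a ratio of 1.195 (SD, n = 3 each). The 3 serine synthesis genes together had 489 ± 8.1 FPKM in knockdown and 565 ± 13.5 FPKM in scrambled libraries, a ratio of 0.867.

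Asns, the asparagine synthetase, had 48.2, 49.5 and 48.9 FPKM in knockdown libraries, against 75.0, 73.9 and 79.4 FPKM in scrambled libraries. Its knockdown values varied little (SD 0.699 FPKM), and the nearest libraries of the groups were 24.3 FPKM apart. This is a log2 fold change of −0.63 ± 0.03 (limma adjusted p = 1.49e-05), the smallest adjusted p among the members. Only 4.25% of tested genes had a lower fold change. The within-batch values were −0.63, −0.57 and −0.69.

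Each of the 10 members had the same sign within all 3 batches. This follows from their groups not overlapping, and holds likewise for the 61.1% of tested genes without overlap. The fold changes ran from −1.43 to −1.64 for Aldh1l2, from −0.47 to −0.68 for Psph, and from 0.22 to 0.46 for Shmt1 over the batches. Shmt2, a smaller fall, varied little over the batches, between −0.29 and −0.33.

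**Figure D3:**
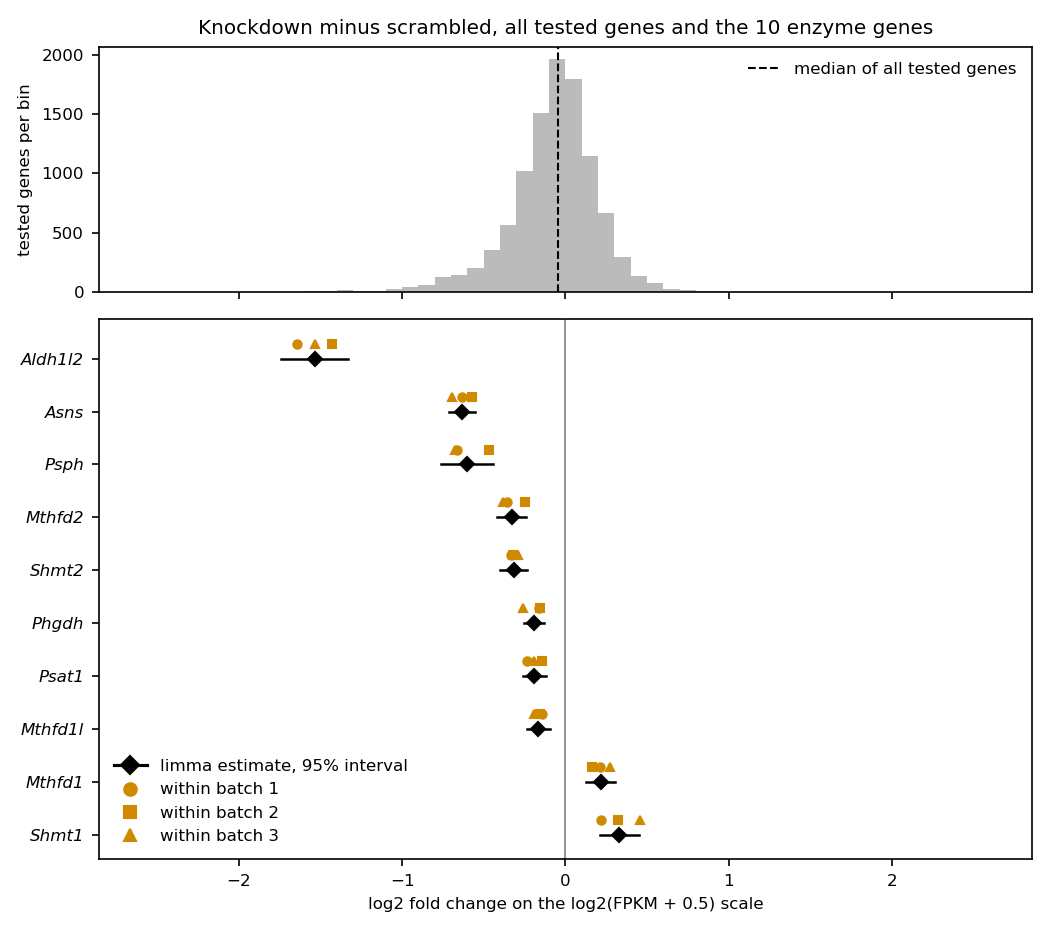
The upper panel is a histogram of the log2 fold change of all 10311 tested genes, knockdown minus scrambled, with their median of −0.05 as a dashed line. The lower panel gives the limma estimate of each enzyme gene as a diamond with its 95% interval, and the 3 within-batch differences as orange symbols, on the same axis, from Aldh1l2 at −1.54 at the top to Shmt1 at 0.33 at the bottom.

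Enzymes and carriers next to these steps went both ways, and their list medians stand beside −0.05 for all tested genes. The counts in each list stand beside 19.8% higher and 31.1% lower among all tested genes. Of 8 listed genes of glycine cleavage and serine transport, 7 were tested, 3 rose, 2 fell and 2 did not pass (median log2 fold change 0.06). Gcsh, the lipoyl carrier protein of glycine cleavage, rose to 79.6 ± 3.25 FPKM in knockdown, against 60.6 ± 1.99 FPKM in scrambled libraries (log2 fold change 0.39 ± 0.04, limma adjusted p = 0.000106). The aminomethyltransferase Amt fell to 0.656 ± 0.0995 FPKM in knockdown, against 1.42 ± 0.365 FPKM in scrambled libraries (−0.72 ± 0.15, limma adjusted p = 0.00393), a call lost under quantile normalization, and its log2 fold change ran from −1.08 to −0.36 over the alternatives. The glycine decarboxylase gene Gldc averaged 0.0307 FPKM in knockdown and 0.0383 FPKM in scrambled libraries, was not tested and was named after its values were seen. Slc25a32, the carrier that brings folate into mitochondria, rose by 0.30 on the log2 scale, and Sfxn3 of the sideroflexin family of serine transporters stood at −0.25. Its relative Sfxn1, a mitochondrial serine transporter, stood at 0.10, was named after its value was seen and lost its call under 7 of 17 alternatives.

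Of 15 listed genes of folate uptake, reduction and use, 11 were tested, 4 rose, 3 fell and 4 did not pass (median 0.00). The number that rose was 2 when knockdown library 1 or scrambled library 2 was left out, and also on the TPM scale. The thymidylate synthase gene Tyms, named after its value was seen, stood at 0.00 and changed sign under 4 of 17 alternatives. Slc19a1, the reduced folate carrier of the cell surface, rose to 17.0 ± 0.653 FPKM in knockdown, against 12.6 ± 0.304 FPKM in scrambled libraries (0.42 ± 0.04, limma adjusted p = 0.000119). Fpgs, which adds the glutamate tail that holds folate in the cell, rose by 0.22. Mthfs, which returns formyl folate to the pool, was near the filter, at 0.882 ± 0.197 FPKM in knockdown and 1.65 ± 0.258 FPKM in scrambled libraries, with 23 to 69 fragments per library. Its log2 fold change was −0.64 and ran from −0.92 with limma-voom to −0.39 under quantile normalization. Mthfd2l, the mitochondrial paralog of Mthfd2, went against its paralog, with 8.61 ± 0.83 FPKM in knockdown and 7.14 ± 0.736 FPKM in scrambled libraries (0.26 ± 0.09, limma adjusted p = 0.0334). It was named after its value was seen, and its call was lost under 6 of 17 alternatives.

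In the methionine cycle the tested genes past the threshold were higher. Of 11 listed genes, 8 were tested, 4 rose and 4 did not pass (median 0.08). Mat2a, which makes S-adenosylmethionine, rose to 105 ± 0.855 FPKM in knockdown, against 87.2 ± 0.991 FPKM in scrambled libraries (0.27 ± 0.03, limma adjusted p = 8.93e-05). Mtrr, the methionine synthase reductase, rose by 0.23 and Ahcy, which breaks down S-adenosylhomocysteine, by 0.14 (0.08 under cyclic loess). In this list 1 gene was lower under 3 alternatives, and 2 were lower after rescaling to TPM and without scrambled library 3.

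Of 21 listed genes that use serine or glycine, 12 were tested, 0 rose, 7 fell and 5 did not pass (median −0.14), and 1 rose without knockdown library 3 or scrambled library 2. Besides the large fall of the cystathionine lyase gene Cth, Grhpr, a glyoxylate and hydroxypyruvate reductase, fell to 12.1 ± 0.34 FPKM in knockdown, against 19.5 ± 1.26 FPKM in scrambled libraries (−0.67 ± 0.05, limma adjusted p = 3.77e-05). Serinc3 of the serine incorporator family stood at −0.56, the serine racemase Srr at −0.52 (−0.30 under quantile normalization) and Serinc5 at −0.23. Alas1 (−0.14), the first enzyme of haem synthesis, and Serinc1 (−0.09) lost their calls under 6 and 10 of 17 alternatives. The serine palmitoyltransferase genes Sptlc1 (0.14) and Sptlc2 (−0.12) did not pass, gained a call under 5 and 3 alternatives and were named after their values were seen.

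Of 17 listed genes around aspartate, asparagine, glutamine and proline, 16 were tested, 5 rose, 5 fell and 6 did not pass (median −0.03). Gpt2, the mitochondrial alanine transaminase, fell to 3.69 ± 0.525 FPKM in knockdown, against 10.6 ± 0.974 FPKM in scrambled libraries (−1.42 ± 0.10, limma adjusted p = 2.61e-05). The proline synthesis genes differed among themselves. Aldh18a1, the first enzyme, stood at −0.59, and Pycr1, a mitochondrial reductase of the last step, fell to 4.59 ± 0.647 FPKM in knockdown, against 12.0 ± 1.203 FPKM in scrambled libraries (−1.30 ± 0.10, limma adjusted p = 3.55e-05). Its paralog Pycrl rose by 0.25. Oat, the ornithine aminotransferase, stood at −0.25.

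Most genes of the list around ATF4 fell. Of 17 genes, all tested, 15 fell, 0 rose and 2 did not pass (median −0.61). Among all tested genes 31.1% fell and 19.8% rose. The list overlaps stress-response genes already examined in these libraries and is no independent evidence of a direction. Atf4 itself, at 265 ± 5.55 FPKM in knockdown and 327 ± 7.78 FPKM in scrambled libraries, had a log2 fold change of −0.30 ± 0.03 (limma adjusted p = 8.54e-05), and its partner Cebpg stood at −0.47. Atf5 (−0.90), Ddit3 (−0.86) and the gene of the glutathione-degrading enzyme Chac1 (−1.68) also fell. The kinase genes Eif2ak2 (−0.43), Eif2ak3 (−0.29) and Eif2ak4 (−0.23) fell and Eif2ak1 stood at 0.05 (limma adjusted p = 0.305). Of these, Eif2ak1, Eif2ak3 and Eif2ak4 were named after their values were seen. Under median centring 1 gene of this list was higher, and Eif2ak3 lost its call under quantile normalization (−0.17).

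The deposited pathway annotation gives lists that were not assembled for this comparison, and their counts again stand beside 19.8% higher and 31.1% lower among all tested genes. Of 33 genes it assigns to KEGG mmu00260, glycine, serine and threonine metabolism, 21 were tested, 3 rose, 14 fell and 4 did not pass (median −0.19), and without the members among them 2 of 16 rose and 10 fell. Of 18 genes it assigns to the folate carbon pool (KEGG mmu00670), 17 were tested, 6 rose, 7 fell and 4 did not pass (median −0.13). Without the 6 members among them, 4 of 11 rose and 3 fell. The purine synthesis enzymes Gart and Atic, which use formyl folate, were among those that rose, each by 0.38, and were named after their values were seen.

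**Figure D4:**
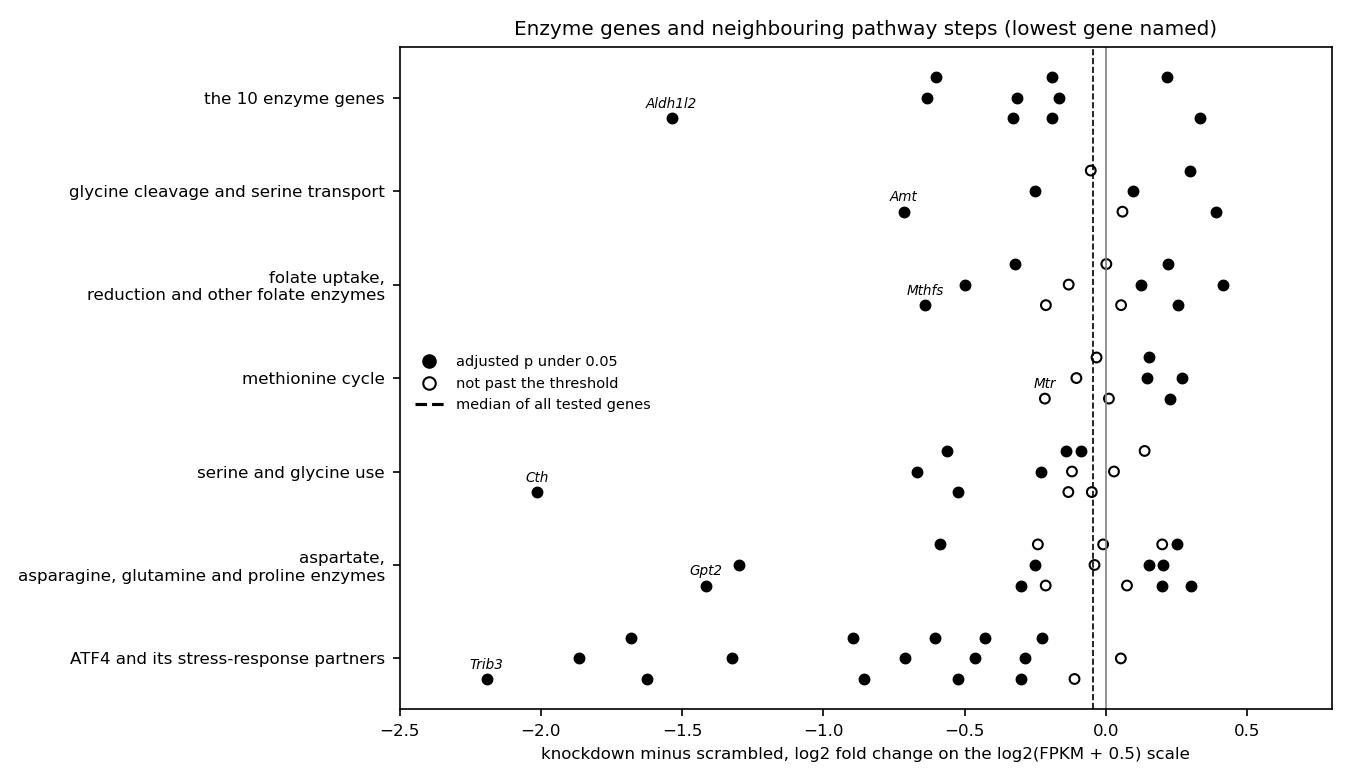
Each row is a gene list and each point a tested gene, placed by its log2 fold change, knockdown minus scrambled, with filled points past an adjusted p of 0.05 and open points not. The dashed line is the median of all tested genes at −0.05. The enzyme genes spread from Aldh1l2 to Shmt1, the ATF4 list lies mostly left of 0 down to Trib3 at −2.19, and the folate, glycine cleavage and methionine lists lie on both sides of 0.

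By Pearson correlation of log2(FPKM + 0.5) over the 6 libraries, the tested genes most like Asns were Clic4, Phf10, Atf5, Pdk1 and Lss (r from 0.9990 to 0.9998). Those most like Phgdh were Pde3b, Igtp, Serpinh1, Nars and Adamtsl3 (r from 0.9967 to 0.9989). The 8 members that fell had r from 0.918 to 0.994 with each other. These correlations describe 6 libraries in 2 groups, and any gene with a large group difference and little spread scores high.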

How the data were processed

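The authors deposited 1 table of FPKM (fragments per kilobase of gene and per M fragments), 1 value per gene and library, for mRNA captured on beads and fragmented by heat, per the labels' protocols. The submitters' processing notes name GRCm38, mm10 and GRCm39 without a role. The sources used here give neither aligner, counter, versions nor strand setting. Values of 1 fragment were read from the FPKM steps: 19877 of 19877 genes were whole multiples within 0.002, and the sums give the depths. A gene above 0 in only 1 library fits by construction, so for such genes this share is no test. Low genes whose counts share a factor are understated.

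FPKM were changed to log2(FPKM + 0.5). Genes with at least 1 FPKM in at least 3 of 6 libraries were tested with limma 3.58.1 in R 4.3.3 (trended moderation, two-sided, Benjamini-Hochberg over 10311 genes, threshold 0.05). Intervals and errors cover the spread between libraries. Ratios were tested with exact permutations in scipy 1.17.1. The limma fit and the recovery of fragments were tested on simulated data, and the ratio test was not. Genes named outside the 10 members were those past the threshold whose log2 fold change was 0.5 or more in size or the 3 of next smallest p in each list, the 5 most correlated genes, cell markers, genes overlapping a member, and those said to be named after their values were seen. One listed gene was matched through its RefSeq synonym, Pycrl. Some genes that the rule names are counted in their lists and not reported here by name. The members and lists were chosen with earlier results of these data known.

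Per the labels, each batch joins the knockdown and scrambled libraries of the same number, which pairs them. Deviations from the group mean correlated by 0.0859, 0.0120 and 0.189 in batches 1, 2 and 3. Alternatives were a batch block, pseudocounts of 0.1 and 1, no filter, a mean FPKM of at least 5, TPM, median centring, quantile normalization, cyclic loess, no variance trend, limma-voom on recovered fragments and leaving out each library.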

Additional observations from a re-analysis of the deposited data

How the results depend on the processing

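All 10 members kept their direction and stayed past the threshold under all 17 alternatives, with 2 higher and 8 lower in each, the replicate block included (2 and 8). Since the groups overlap for no member, leaving out 1 library could not turn a direction. Of all tested genes 51.0% passed in the main fit, and the share that passed under every alternative was not computed. The largest adjusted p of the members was 0.0313, for Mthfd1l (from 0.000687 to 0.0313), whose log2 fold change ran from −0.21 to −0.10. Phgdh ran from −0.28 to −0.13 and Psat1 from −0.28 to −0.12. Aldh1l2 ran from −1.62 to −1.45 and Shmt1 from 0.29 to 0.40. With the batch block, 2055 of all tested genes were higher and 3174 lower, against 2046 and 3209 without it, and among the named genes the block changed the calls of Serinc1, which was lost, and Sptlc1, which was gained. With batch as pairs, an exact sign-flip test of the ratios could not go below p = 0.25. Limma-voom on recovered fragments called 2083 genes higher and 3343 lower. Among called genes 38.9% were higher, compared with 27.6% for TPM (1540 and 4035 genes), 56.7% under median centring, 52.4% under quantile normalization and 47.8% under cyclic loess. At a mean FPKM of at least 5, where 7342 genes were tested, 2042 were lower, and 1 gene each of the glycine cleavage and folate lists was lower, since their low genes were not tested. Among genes that use serine, 1 was higher under cyclic loess, median centring, quantile normalization and the replicate block. In the methionine cycle 1 was lower with limma-voom, without the variance trend and with the replicate block, and 2 after rescaling to TPM. In the ATF4 list 1 was higher under median centring, in the glycine cleavage list 1 was lower under quantile normalization, and in the folate list 2 were higher after rescaling to TPM. The cause of these changes was not tested. Leaving out 1 library gave 2 to 4 higher genes in the folate list, 0 to 1 higher in the serine use list and 0 to 2 lower in the methionine cycle. It gave −0.0272 to 0.0285 for the log2 difference of Psat1 over Phgdh, whose sign turned without knockdown library 3, scrambled library 2 or scrambled library 3. Tyms, at 0.0014 with all libraries, was at −0.0432 on the TPM scale and at −0.0577, −0.0248 and −0.00146 without knockdown library 3, scrambled library 1 and scrambled library 2. Leaving out 1 library gave −0.0577 to 0.0451 for it.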
